A study of Rattus norvegicus with 6 samples.

Results

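The matrix metalloproteinases (Mmp), the disintegrin metalloproteinases (Adam), the Adam proteins with thrombospondin repeats (Adamts) and the tissue inhibitors of metalloproteinases (Timp) were examined in rat ovary. A gene was a member if the platform annotation gave its probe set 1 gene, and if that symbol began with Mmp, Adam, Adamts or Timp followed by a digit. This gave 51 of the 14217 named genes on the array, namely 17 Mmp, 18 Adam, 12 Adamts and 4 Timp genes, on 74 probe sets. The value of a gene is the mean of its probe sets. Of the members, 36 had 1 probe set and 15 had several.

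The ovaries came from female rats fed liquid diets by tube (total enteral nutrition) for 28 days. The lean group received 155 kcal and the overfed group 220 kcal per kg of metabolic body weight (body weight to the power ¾). Females of both groups were mated with lean males, and their ovaries were frozen at 4.5 days after mating. RNA from 3 pools of lean and 3 pools of overfed ovaries was measured on 6 Affymetrix arrays. The labels do not give strain, age or the number of animals in a pool, nor say whether the pools held different animals, and p-values measure only the spread between pools.

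Mmps are secreted or membrane-bound zinc proteases that together cut most proteins of the extracellular matrix, and Timps bind and block their active site. Adams sit in the membrane, where the active ones release growth factors, cytokines and receptors from cells. Adamts proteases are secreted and cut proteoglycans, procollagens and other matrix proteins. In the ovary such proteases take part in the rupture of the follicle at ovulation, in which Adamts1 acts on versican, and in the growth and breakdown of the corpus luteum.

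The deposited values are logarithms, read here as log2, relative to the median of the 6 arrays for each probe set. Differences between pools are therefore known, while the level of a gene, and whether it lies above background, is not; the labelled tissue and other cell types could be followed by marker genes in relative terms only. The base of the logarithm is not given in the sources used here, and folds would be larger if it were e. In whole tissue, fewer cells of a type and less RNA per cell cannot be told apart. The array medians lay between -0.0094 and 0.0099. Overfed pool 1 had the widest spread over probe sets (SD 0.29, against 0.14 to 0.24 in the other pools). The array controls were unusual in lean pool 3, with a mean of 0.51 over 18 hybridization control probe sets (-0.24 to 0.045 elsewhere) and a 3' minus 5' difference of 0.36 for beta-actin (-0.06 to 0.06 elsewhere).

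None of the 51 genes differed between overfed and lean ovaries beyond the threshold of an adjusted p of 0.05 in limma's moderated test. The smallest adjusted p among them was 0.529, and over all genes 0 of 14217 passed (0%; smallest adjusted p 0.504). At an unadjusted p under 0.05 in limma there were 4 members, of which Adamts5 and Adam4 had higher and Adam8 and Timp4 lower values in overfed ovaries. That is 7.84% of the members, against 7.18% of all genes (2.76% with higher and 4.42% with lower values). The 3 lean and 3 overfed values did not overlap in those 4 genes and in Adamts1, or 9.8% of the members, against 13.4% of all genes (7.09% higher and 6.35% lower). Both shares lie near or below the background, so neither count sets the members apart. The 95% interval of the difference lay within a 2-fold change in both directions for 43 of the 51 genes (84.3%), against 95.3% of all genes. Differences over 0.5 in size were found in 5 members (9.8%), against 3.02% of all genes, a difference in shares that was not tested.

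**Figure D1:**
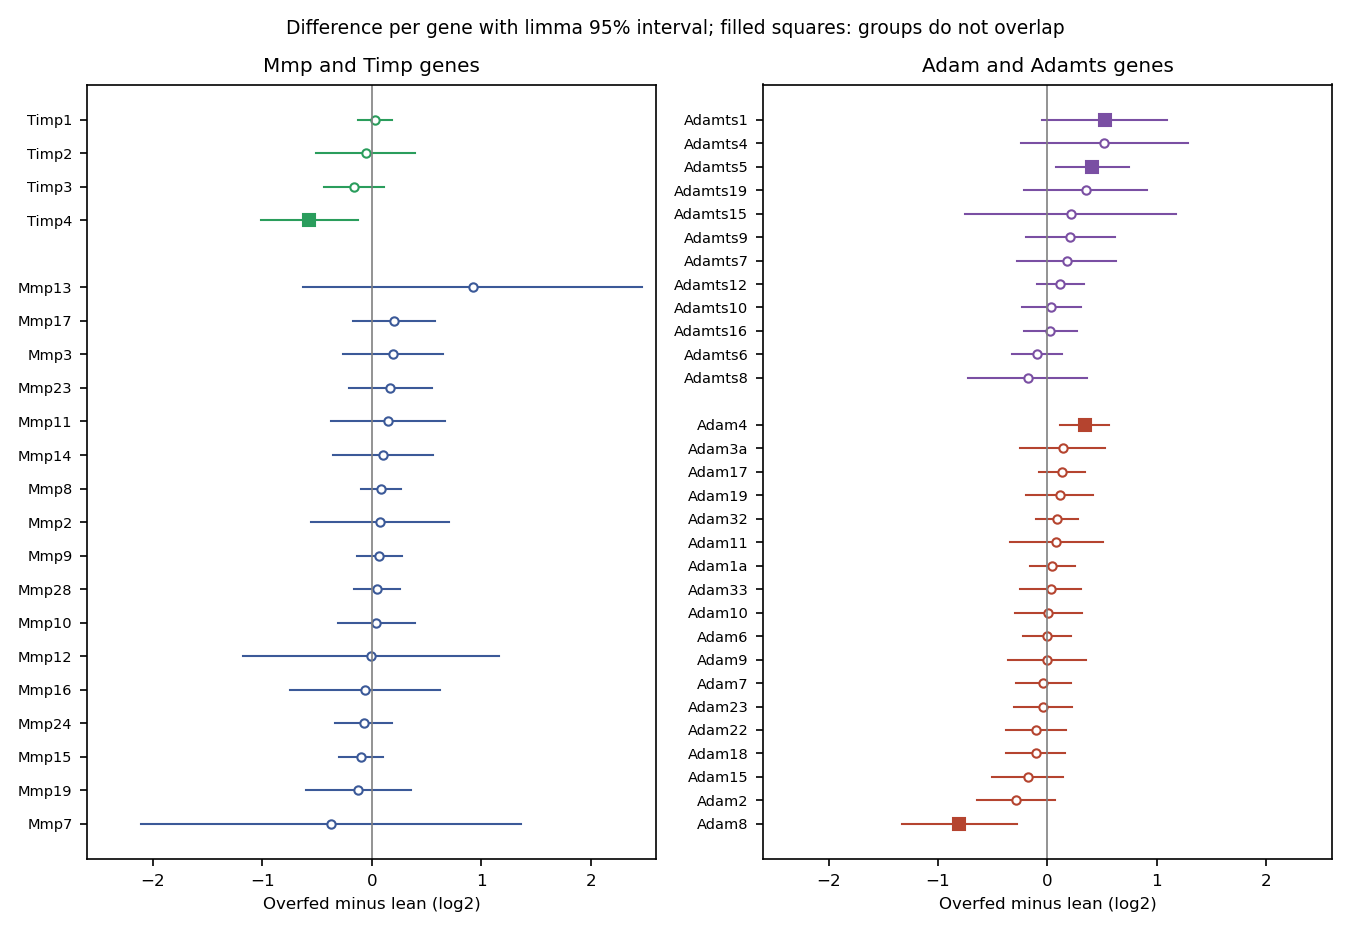
Overfed minus lean difference of each of the 51 genes (x axis, log2; points) with its 95% interval from limma (lines, 3 pools per group), by family. Filled squares mark Timp4, Adam8, Adam4, Adamts1 and Adamts5, whose lean and overfed values do not overlap; the widest intervals belong to Mmp13, Mmp7 and Mmp12.

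By family, the means of Adamts and Timp lay farthest from 0, on opposite sides. The 12 Adamts genes had a mean difference of +0.19 (10 above 0, median 0.19), beside a median of 0.0079 over all genes, of which 52.6% lay above 0. The 17 Mmp genes had a mean of +0.08 (11 above 0, median 0.07), the 18 Adam genes -0.03 (9 above 0, median 0.0012) and the 4 Timp genes -0.19 (1 above 0, median -0.11). Per pool, the Adamts mean was -0.05, -0.15 and 0.0033 (lean 1, 2 and 3) and 0.396, -0.05 and 0.03 (overfed 1, 2 and 3). Overfed pool 1 thus held most of the Adamts shift, and without it the Adamts mean was 0.056 and the Mmp mean -0.011. The largest single Mmp difference, +0.92 for Mmp13, came from overfed pool 3 (2.57). The Timp mean was -0.23 in overfed pool 1, -0.09 in pool 2 and -0.01 in pool 3, against 0.04, 0.01 and 0.175 in the lean pools. Without overfed pool 1 the Timp difference was -0.13. Timp4 alone (-0.57) made up most of the Timp mean, with Timp1, Timp2 and Timp3 at +0.03, -0.06 and -0.16.

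**Figure D2:**
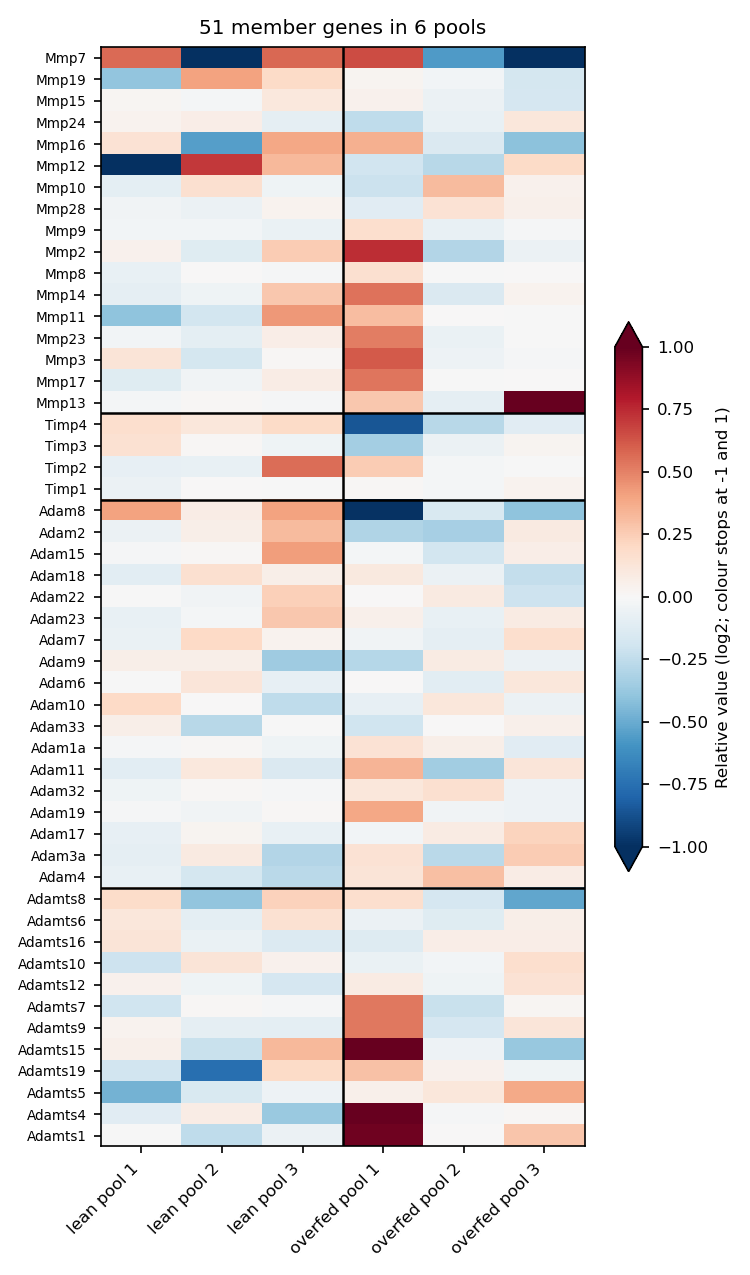
Relative value (log2, colour) of the 51 genes (rows, by family and ordered by difference) in the 3 lean and 3 overfed pools (columns). The column of overfed pool 1 holds high values of Adamts1, Adamts4, Adamts15 and Mmp2 and low values of Adam8 and Timp4, and the value of 2.57 for Mmp13 stands alone in overfed pool 3.

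The Timp genes encode the inhibitors, and only Timp4 among them had groups that did not overlap. Timp4, which inhibits several Mmps and has a narrower tissue range than the other Timps, had lean values of 0.17, 0.11 and 0.19 and overfed values of -0.85, -0.28 and -0.11, here and below in the order of pools 1, 2 and 3. The lean pools lay close together and the overfed pools were spread over a wide range below them. The difference was -0.57 (SE 0.19, 1.49-fold lower; limma unadjusted p = 0.0189, adjusted p = 0.604). The exact permutation p, two-sided, was 0.1, the smallest that 3 against 3 pools allow. Without overfed pool 1 it was -0.35. Timp3, the inhibitor that binds to the matrix and also blocks Adam17 and Adamts proteases, had 0.15, 0.01 and -0.05 in the lean and -0.34, -0.05 and 0.03 in the overfed pools, a difference of -0.16 (SE 0.12). Overfed pool 1 was the lowest, and all 4 Timp3 probe sets had differences between -0.14 and -0.20.

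Timp1, a secreted inhibitor induced around ovulation, varied least of the 4. Its lean values of -0.06, 0.0036 and -0.0036 and overfed values of 0.01, -0.02 and 0.04 gave a difference of +0.03, with a 95% interval from -0.12 to 0.19. Timp2, which also helps Mmp14 to activate Mmp2, had -0.08, -0.07 and 0.56 in the lean and 0.26, -0.02 and -0.0066 in the overfed pools. The mean difference of -0.06 (SE 0.19) turned to +0.155 without lean pool 3, the pool with the unusual array controls.

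The collagenases, which cleave fibrillar collagens, held the largest positive difference of the whole set. Mmp13 had lean values of -0.02, 0.01 and -0.01 and overfed values of 0.27, -0.09 and 2.57. A single pool was high and the other overfed pools lay on both sides of the lean values. The difference of +0.92 had an SE of 0.65 (exact two-sided permutation p = 0.4, limma adjusted p = 0.825) and was 0.097 without overfed pool 3. The neutrophil collagenase Mmp8 was at +0.08 (SE 0.077).

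The gelatinases degrade denatured collagen and basement membrane collagen. Mmp2 had 0.04, -0.12 and 0.25 in the lean and 0.74, -0.29 and -0.06 in the overfed pools, and Mmp9 had -0.03, -0.03 and -0.07 against 0.17, -0.07 and -0.0093. In both of these means over probe sets, overfed pool 1 was the highest of all pools and overfed pool 2 the lowest. The differences were +0.07 for each (SE 0.26 and 0.085), and that of Mmp2 was -0.23 without overfed pool 1. The probe sets of Mmp2 disagreed, at +0.29 and -0.14, and the highest value of the second lay in lean pool 2 (0.21). Those of Mmp9 were at +0.10 and +0.04. Their lowest values lay in lean pool 1 (-0.22) and lean pool 3 (-0.225). The highest value of the second lay in lean pool 1 (0.16).

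Mmp14, the membrane-type protease that activates pro-Mmp2 at the cell surface, had -0.09, -0.04 and 0.27 in the lean and 0.54, -0.14 and 0.04 in the overfed pools. Overfed pool 1 was again the highest, and the difference of +0.10 (SE 0.19) was -0.098 without it. Of the 5 membrane-type genes 2 had differences above 0, with a median of -0.06. The others were Mmp17 at +0.21, Mmp15 at -0.10, Mmp24 at -0.07 and Mmp16 at -0.06, and the groups overlapped in all 5.

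Among the stromelysins, the matrilysin and the metalloelastase, the spread within a group exceeded any difference. Mmp7, the matrilysin, an epithelial protease, had lean values of 0.57, -1.49 and 0.57 and overfed values of 0.65, -0.57 and -1.55. Each group held both high and low pools. The difference of -0.37 (SE 0.73) was -1.06 without lean pool 2 and +0.16 without overfed pool 3. Mmp12, the macrophage metalloelastase, had -1.28, 0.71 and 0.32 in the lean and -0.19, -0.28 and 0.19 in the overfed pools, a difference of -0.0091 (SE 0.49). Lean pools 1 and 2 were its lowest and highest values. For comparison, the mean of 9 macrophage markers was -0.10, -0.16 and -0.07 in the lean and 0.11, 0.05 and 0.195 in the overfed pools, and 3 of the 9 had an unadjusted p under 0.05 in limma, all with higher values, against 2.76% of all genes.

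The stromelysin Mmp3 had 0.13, -0.18 and 0.02 in the lean and 0.61, -0.05 and -0.02 in the overfed pools, again with overfed pool 1 the highest (+0.19, SE 0.19, and -0.023 without that pool). Mmp11, a stromelysin of stromal cells that is activated inside the cell, had -0.40, -0.18 and 0.44 against 0.30, 0.0027 and -0.0027 (+0.15, SE 0.22). Without lean pool 1 its difference was -0.025. Mmp19, expressed in ovarian follicles and stroma, had -0.40, 0.40 and 0.19 in the lean and 0.03, -0.03 and -0.18 in the overfed pools. Its lean pools spanned the whole range of the overfed pools, with a difference of -0.12 (SE 0.20).

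Of the measured Mmp genes, 6 lie together on chromosome 8 of the rat, in the order Mmp13, Mmp12, Mmp3, Mmp10, Mmp8 and Mmp7, with at most 2 other coding genes between neighbours in the RefSeq gene table. Promoter windows of 300 bases, from 250 before to 50 after the start of the gene, were taken from RefSeq (GRCr8) and matched 30 of the 51 members, 11 of them Mmp genes. The AP-1 motif (TGACTCA or its reverse complement TGAGTCA, the binding site of Fos and Jun proteins) was found in 5 of the 11 Mmp windows, beside 4.63% of all 33469 windows. The 5 genes were Mmp3, Mmp7, Mmp10, Mmp12 and Mmp13, all in this cluster, and all 5 windows also held TATAAA (either strand). Both motifs together occurred in 0.762% of all windows. The window of Mmp8, in the same cluster, held TTTATA but no AP-1 motif. The highest value lay in overfed pool 3 for Mmp13, in overfed pool 1 for Mmp7 and Mmp3, in lean pool 2 for Mmp12 and in overfed pool 2 for Mmp10. A link between these motifs and the values was not tested.

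The windows of the 3 cluster genes with the widest spread between pools are shown, Mmp13 (chr8:12782579-12782878, plus strand), Mmp12 (chr8:12866402-12866701, plus strand) and Mmp7 (chr8:13132793-13133092, plus strand). They are written 5′ to 3′ on the strand of the gene, and capitals mark the AP-1 motif, which begins 66, 87 and 80 bases before the start, and TATAAA.

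Mmp13: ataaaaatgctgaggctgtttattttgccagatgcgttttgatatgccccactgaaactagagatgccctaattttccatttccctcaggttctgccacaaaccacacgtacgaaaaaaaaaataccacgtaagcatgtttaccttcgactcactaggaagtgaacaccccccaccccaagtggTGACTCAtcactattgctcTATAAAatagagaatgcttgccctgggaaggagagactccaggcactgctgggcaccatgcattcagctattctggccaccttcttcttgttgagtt

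Mmp12: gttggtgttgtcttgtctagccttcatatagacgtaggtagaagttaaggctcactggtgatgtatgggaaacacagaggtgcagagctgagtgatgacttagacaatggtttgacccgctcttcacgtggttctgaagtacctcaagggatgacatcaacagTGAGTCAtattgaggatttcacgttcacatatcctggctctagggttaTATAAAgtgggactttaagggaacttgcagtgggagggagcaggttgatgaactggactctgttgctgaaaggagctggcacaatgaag

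Mmp7: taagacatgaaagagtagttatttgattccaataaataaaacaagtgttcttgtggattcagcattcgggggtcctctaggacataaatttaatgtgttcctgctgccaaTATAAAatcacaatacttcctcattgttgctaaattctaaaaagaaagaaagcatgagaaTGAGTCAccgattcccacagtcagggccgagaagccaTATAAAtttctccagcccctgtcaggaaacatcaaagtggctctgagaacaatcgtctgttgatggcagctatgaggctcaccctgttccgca

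Motifs of the zinc finger factor Egr1, which the study's title names, were sought as GCGTGGGCG and GCGGGGGCG on both strands. They were found in the windows of Mmp11, where the motif overlaps a GGGCGG box, and Mmp24, and in 3.2% of all windows. Neither gene had groups that did not overlap (Mmp11 +0.15, Mmp24 -0.07). The cyclic AMP response element TGACGTCA was found in 0 of the 30 windows and in 1.83% of all windows.

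The Adamts proteoglycanases, which cut versican and aggrecan, had the highest median of the groups with more than 2 genes. Of 6 genes 5 had differences above 0, with a median of +0.31. Without overfed pool 1 the median was 0.082, with 4 of 6 above 0. Adamts5 had -0.48, -0.15 and -0.05 in the lean and 0.05, 0.12 and 0.38 in the overfed pools. All overfed pools were above all lean pools, in both of its probe sets (+0.35 and +0.47). The difference was +0.41 (SE 0.14, 1.33-fold; limma unadjusted p = 0.0235, adjusted p = 0.604; exact two-sided permutation p = 0.1), and with any 1 pool left out it stayed between 0.29 and 0.497.

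Adamts1, the ovulatory versican protease induced by the luteinizing hormone surge and progesterone, had -0.0040, -0.25 and -0.06 in the lean and 0.97, 0.0040 and 0.28 in the overfed pools. The groups did not overlap, but lean pool 1 and overfed pool 2 were almost equal. Its difference was +0.52 (SE 0.24, 1.44-fold; limma unadjusted p = 0.0679, adjusted p = 0.731), and 0.24 without overfed pool 1. Adamts1 and Adamts5 are direct neighbours on chromosome 11, with 0 other coding genes between them, and their highest values lay in different pools, overfed pool 1 and overfed pool 3.

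The promoter window of Adamts1 (chr11:38427335-38427634, minus strand) is shown because its groups were apart and it stands next to Adamts5. Capitals mark TATAAA, 70 bases before the start, and GGGCGG boxes, which bind Sp1-type factors, 114 and 63 bases before it. GGGCGG or its reverse complement CCGCCC was found in 33.1% of all windows, and TATAAA or TTTATA in 14.2%.

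Adamts1: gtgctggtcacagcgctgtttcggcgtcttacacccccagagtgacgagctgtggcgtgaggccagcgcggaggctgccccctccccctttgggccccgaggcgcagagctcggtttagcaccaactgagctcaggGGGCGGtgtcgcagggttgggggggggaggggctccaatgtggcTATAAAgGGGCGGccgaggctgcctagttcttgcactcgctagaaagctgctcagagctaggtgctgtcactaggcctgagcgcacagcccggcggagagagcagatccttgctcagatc

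Adamts4, an aggrecan and versican protease, had -0.11, 0.08 and -0.37 in the lean and 1.15, -0.01 and 0.01 in the overfed pools. Only overfed pool 1 was above the lean range, and the difference of +0.52 (SE 0.32) was 0.14 without it. Adamts9 (0.03, -0.09 and -0.10 against 0.53, -0.17 and 0.12) likewise had its highest value there. Its +0.21 (SE 0.17) was 0.027 without that pool, and its probe sets were at +0.43 and -0.0074. Adamts15 reached 1.22 in overfed pool 1 and -0.38 in overfed pool 3, and its difference of +0.21 was -0.27 without overfed pool 1. Adamts8 was the one gene of this group below 0 (-0.18). The other 6 Adamts genes had a median difference of +0.08 and ranged from Adamts6 at -0.096 to Adamts19 at +0.35, and the groups overlapped in each.

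**Figure D3:**
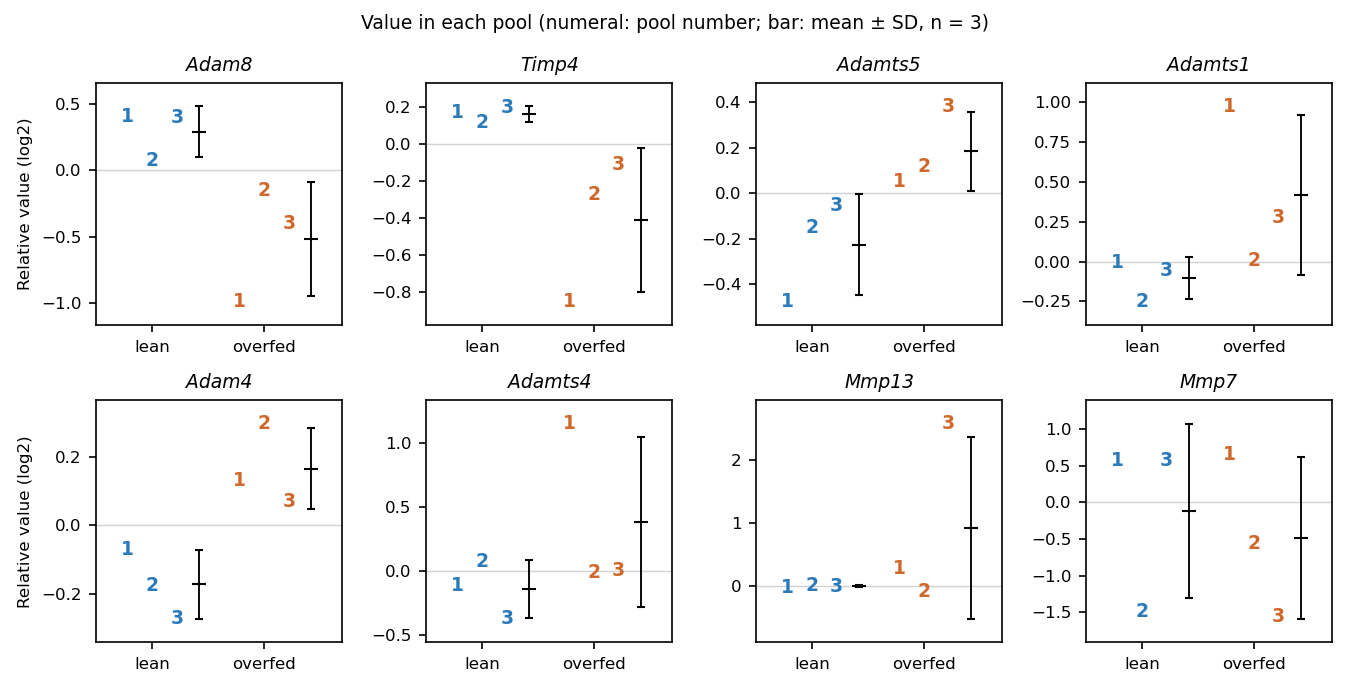
Relative value (y axis, log2, own scale per panel) of 8 genes in each pool (numerals are pool numbers, lean and overfed apart), with the mean and SD over 3 pools. The groups are apart for Adam8, Timp4, Adamts5, Adamts1 and Adam4, whereas the mean of Adamts4 is raised by 1 overfed pool, that of Mmp13 by another, and Mmp7 is spread over more than 2 units in both groups.

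Among the members, overfed pool 1 held the highest value more often than any other pool, in 17 of 51 genes (33.3%) against 19.2% of all genes. It did so in 8 of the 17 Mmp, 6 of the 12 Adamts, 3 of the 18 Adam and 0 of the 4 Timp genes. Over all genes lean pool 3 (21.6%) and overfed pool 3 (20.4%) held more highest values than it did. The mean of 8 fibroblast and stroma markers was 0.485 there, beside -0.13 and 0.02 in overfed pools 2 and 3 and -0.0077, -0.33 and 0.16 in the lean pools. Of these 8, the collagen genes Col1a1, Col1a2 and Col3a1 and Dcn, Pdgfra and Dpt were highest in that pool, while Lum (0.01) and Tcf21 (0.01) were not. The mean of 4 theca and interstitium markers was 0.54 there, of which Gli1 alone (1.68) made up most. The steroid enzyme Cyp17a1 was at 0.545 there and 0.77 in overfed pool 3, Insl3 at -0.08 and Aldh1a1 at 0.0099. Between the groups, all 8 fibroblast markers had differences above 0, of which 0 had an unadjusted p under 0.05 in limma. All 4 theca and interstitium markers also had differences above 0 (median +0.47). Of these, 2 had an unadjusted p under 0.05 in limma with higher values, against 2.76% of all genes. The mean of 8 smooth muscle markers was higher still in overfed pool 1, at 0.865, beside 0.73 in lean pool 3. The part of any of these cells in the values of overfed pool 1 was not tested.

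**Figure D4:**
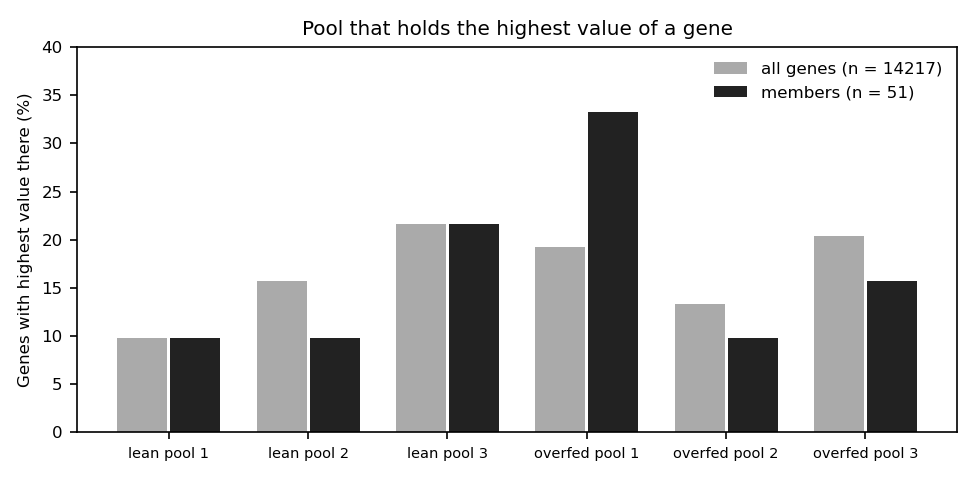
Share of genes (y axis, %) whose highest value lies in each pool (x axis), for the 51 members (dark bars) and all 14217 named genes (grey bars). Overfed pool 1 holds 33.3% of the members' highest values and 19.2% of those of all genes.

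Of the Adam genes, the largest difference was that of Adam8, a leukocyte sheddase and adhesion protein. Its values were 0.41, 0.07 and 0.40 in the lean and -0.99, -0.15 and -0.40 in the overfed pools. All overfed pools were below all lean pools, with a difference of -0.81 (SE 0.22, 1.75-fold lower; limma unadjusted p = 0.00861, adjusted p = 0.529; exact two-sided permutation p = 0.1). The difference came from 1 of its 2 probe sets. Probe set 1392754_at had 0.82, 0.32 and 0.76 in the lean and -1.65, -0.32 and -0.88 in the overfed pools (-1.58, SE 0.32), whereas 1391720_at had -0.01, -0.17 and 0.04 against -0.34, 0.01 and 0.08 (-0.03, SE 0.13). The probe sets therefore disagree on whether Adam8 differed. All 9 macrophage, 3 of 5 neutrophil and 5 of 8 mast cell markers had differences above 0, against 52.6% of all genes. The part of leukocytes in the values of Adam8 was not tested.

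The promoter windows of Adam8 (chr1:204218273-204218572, minus strand) and Timp4 (chr4:149985155-149985454, minus strand), the members with the lowest values in overfed ovaries whose groups were apart, are shown. Of the motifs sought, Adam8 held 1 CCGCCC box 99 bases before the start (capitals) and Timp4 held none.

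Adam8: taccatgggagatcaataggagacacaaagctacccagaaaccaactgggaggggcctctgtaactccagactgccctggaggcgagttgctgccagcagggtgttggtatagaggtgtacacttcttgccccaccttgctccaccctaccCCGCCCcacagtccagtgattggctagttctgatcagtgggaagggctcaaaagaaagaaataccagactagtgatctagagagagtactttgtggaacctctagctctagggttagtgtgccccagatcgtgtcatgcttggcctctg

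Timp4: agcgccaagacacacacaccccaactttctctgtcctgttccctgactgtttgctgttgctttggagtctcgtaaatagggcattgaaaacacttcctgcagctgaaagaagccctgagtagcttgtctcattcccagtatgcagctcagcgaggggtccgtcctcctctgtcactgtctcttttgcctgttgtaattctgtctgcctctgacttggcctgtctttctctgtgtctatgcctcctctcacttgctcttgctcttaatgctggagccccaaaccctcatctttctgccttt

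Markers of the oviduct, whose lining holds ciliated cells, also had lower values in overfed ovaries. Of the 13 oviduct and ciliated epithelium markers 10 were measured, all 10 with lower values in overfed ovaries and 4 with an unadjusted p under 0.05 in limma, beside 4.42% of all genes. Their mean was 0.484, -0.06 and 0.665 in the lean and -0.32, -0.20 and -0.77 in the overfed pools, lowest in overfed pool 3, unlike the first Adam8 probe set. The 3 ciliary genes among them, picked out after their values were seen (Foxj1, the master regulator of motile cilia, and the axoneme genes Rsph1 and Tekt1), had a mean of 0.61, 0.21 and 0.78 in the lean and -1.35, -0.21 and -0.76 in the overfed pools. In these 3 genes overfed pool 1 was lowest and overfed pool 2 least low, as in that probe set. The epithelial genes of the list did not share this order, since Epcam was at 0.535 and Cldn4 at 0.355 in overfed pool 1. Timp4 had its lowest value in overfed pool 1 as well, but its order over overfed pools 2 and 3 was the reverse. The part of oviduct cells in the difference of Adam8 was not tested.

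**Figure D5:**
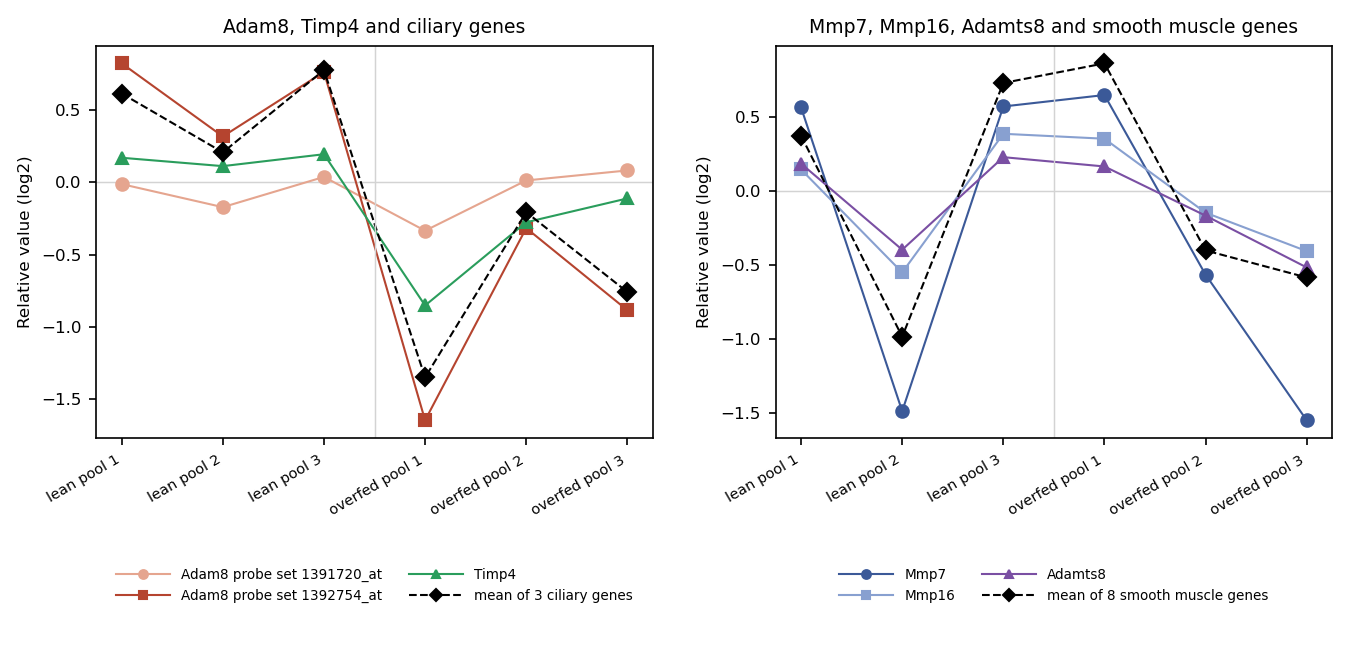
Left, relative value (y axis, log2) in each pool (x axis) of the 2 Adam8 probe sets, Timp4 and the mean of 3 ciliary genes; right, Mmp7, Mmp16, Adamts8 and the mean of 8 smooth muscle genes. Lines only join points of 1 gene, probe set or mean. The 3 ciliary genes and Mmp16 were picked out after their values were seen. Probe set 1392754_at lies near the mean of these ciliary genes in every pool. The mean of all 10 measured oviduct and ciliated epithelium markers, not drawn, was lowest in overfed pool 3 instead. The 3 genes on the right have their low values in lean pool 2 and overfed pools 2 and 3, as the smooth muscle mean does.

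A second pattern crossed the groups. Adamts8 (0.19, -0.40 and 0.23 in the lean, 0.17, -0.17 and -0.52 in the overfed pools; difference -0.18, SE 0.23) and Mmp16 (0.15, -0.55 and 0.39; 0.35, -0.15 and -0.41) had high and low values in the same pools as Mmp7. Mmp16, a membrane-type protease, was picked out after its values were seen. Adamts15, picked out the same way, had 0.05, -0.22 and 0.33 in the lean and 1.22, -0.05 and -0.38 in the overfed pools. It was thus below 0 in the same pools as well as highest in overfed pool 1. The mean of 8 smooth muscle markers was 0.375, -0.99 and 0.73 in the lean and 0.865, -0.40 and -0.585 in the overfed pools, so lean pool 2 and overfed pools 2 and 3 were low in all of these. The mean of 7 adipocyte markers was low in the same pools, with 0.34, -0.21 and 0.65 against 0.19, -0.47 and -0.27. So was the epithelial gene Epcam, 1 of 10 measured oviduct and ciliated epithelium markers. It had 0.46, -0.64 and 0.49 in the lean and 0.535, -0.46 and -1.18 in the overfed pools. The mean of those 10 markers did not share this order, at -0.06 in lean pool 2 and -0.32 in overfed pool 1. Between the groups 6 of the 8 smooth muscle markers had differences below 0 (median -0.04), and 0 had an unadjusted p under 0.05 in limma. All 7 adipocyte markers had differences below 0 (median -0.41), also with 0 at an unadjusted p under 0.05 in limma. The part of smooth muscle, epithelium or fat in these values was not tested.

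The ubiquitous sheddases Adam10 and Adam17 had small differences. Adam10, which cleaves Notch receptors and cadherins, had 0.20, 0.0059 and -0.26 in the lean and -0.08, 0.11 and -0.06 in the overfed pools. The groups overlapped, and the difference of +0.0084 had a 95% interval from -0.30 to 0.31. Adam17, which releases tumour necrosis factor and the ligands of the epidermal growth factor receptor, had -0.09, 0.03 and -0.07 against -0.03, 0.08 and 0.22 (+0.13, SE 0.089, limma adjusted p = 0.818). Its groups overlapped, and the interval ran from -0.08 to 0.35. Of the 7 measured somatic sheddases 4 had differences above 0, with a median of 0.0084.

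The 8 Adam genes known from the male reproductive tract, of which several serve sperm and egg adhesion, had differences on both sides of 0 (4 above, median 0.02). The exception to the overlap was Adam4, with -0.07, -0.17 and -0.27 in the lean and 0.13, 0.30 and 0.07 in the overfed pools. Every overfed pool was above every lean pool, and the difference was +0.34 (SE 0.093, 1.27-fold; limma unadjusted p = 0.00905, adjusted p = 0.529; exact two-sided permutation p = 0.1). With any 1 pool left out it stayed between 0.27 and 0.39. Adam2, a subunit of the sperm protein fertilin, was at -0.29 (SE 0.15) with overlapping groups. Adam9, Adam32, Adam3a and Adam18 stand close together on chromosome 16, with differences of -0.0066, +0.09, +0.14 and -0.11. Adam11, Adam22 and Adam23, which lack protease activity and act in neurons, had a median of -0.04.

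Of 63 measured genes that act with these proteases, in 5 lists, 0 passed the adjusted threshold in limma and 6 (9.52%) had an unadjusted p under 0.05, against 7.18% of all genes. Of 9 genes of the plasminogen activator system, which makes the plasmin that activates pro-Mmps, 7 had differences above 0. One had an unadjusted p under 0.05: Plat, the tissue plasminogen activator, with 0.64, 0.11 and 0.37 in the lean and -0.32, -0.11 and -0.36 in the overfed pools. All overfed pools were below all lean pools (-0.64, SE 0.15; limma adjusted p = 0.529). The urokinase Plau went the other way without passing (+0.40, SE 0.17; -0.24, 0.0061 and -0.17 against 0.23, -0.06 and 0.62), and the inhibitor Serpina5 was at +0.32 (SE 0.14).

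Among 15 Adamts-like proteins and regulators of Mmps or Adams, 4 had differences above 0 and 1 had an unadjusted p under 0.05 in limma. This was Reck, a membrane-anchored inhibitor of Mmps, with -0.05, -0.23 and -0.06 in the lean and 0.56, 0.05 and 0.12 in the overfed pools (+0.35, SE 0.15; adjusted p = 0.694). The groups of Reck did not overlap, and its highest value lay in overfed pool 1. The proteoglycan Sdc4 was at -0.17. Its groups were apart, but lean pool 1 (0.000375) and overfed pool 1 (-0.000375) were almost equal. Tspan15, a partner of Adam10, was at -0.22. None of the 12 hyaluronan and proteoglycan genes had an unadjusted p under 0.05. Versican (Vcan), the substrate of Adamts1, Adamts4, Adamts5 and Adamts9, was at +0.26 (SE 0.11), with -0.04, -0.10 and -0.27 in the lean and 0.21, -0.08 and 0.24 in the overfed pools. Hapln1 and Ncan were at -0.13 and -0.14. Of 4 astacin and meprin genes the lowest p was that of Mep1a (-0.31, SE 0.13), whose groups did not overlap, with Mep1b at +0.12 and Pcolce at +0.03.

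Of 23 measured genes for proteins shed by Adam10 or Adam17 or for their receptors, 4 (17.4%) had an unadjusted p under 0.05 in limma, against 7.18% of all genes, 2 in each direction. Egf had -0.11, -0.10 and -0.20 in the lean and 0.27, 0.10 and 0.15 in the overfed pools (+0.31, SE 0.078; adjusted p = 0.529). Its receptor Egfr had -0.29, -0.18 and -0.02 against 0.14, 0.21 and 0.03 (+0.29, SE 0.095). In both every overfed pool was above every lean pool. The membrane chemokine Cx3cl1 was at -0.34 (SE 0.091) and the ligand epiregulin (Ereg) at -0.41 (SE 0.15). Amphiregulin (Areg) was at +0.65 (SE 0.46), with 1.68 in overfed pool 1, and its groups overlapped.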

How the data were processed

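Ovary RNA of 3 lean and 3 overfed pools was labelled with biotin and hybridized to 1 Affymetrix array per pool, per the labels. The deposited values are log2 values by assumption, as no source used here gives the base; the authors centred them, as in all 31099 probe sets the 6 values had a median of 0 (tolerance 1e-06). GCOS is named in the submitters' processing notes; how the authors summarized, normalized and filtered probe sets is not stated there. Array controls (57) were left out. Of 31042 probe sets 20826 had 1 gene, 436 several and 9780 were unnamed here; symbols were updated through RefSeq (20758 found), which changed 0 member symbols.

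Probe sets were averaged per gene for all 14217 genes. Overfed and lean were compared with limma 3.58.1 (R 4.3.3; lmFit and eBayes, no covariate, two-sided, Benjamini-Hochberg over all genes), and scripts were tested on simulated data. No filter and no variance trend were used, because centred values carry no level. A planned count of protein motifs was not run, since no protein sequences were used here. Named were 19 members fixed by role, members with an unadjusted p under 0.05 or groups apart, the extremes of each family and, per list of related genes, the 3 lowest p; Mmp16, Ereg, Areg and the other members given by values alone were added after their values were seen. The members and lists were chosen with earlier results of these data known; the subset of 3 ciliary genes was set after its values were seen. Alternatives were the pool number as a block, array weights, centring of array medians, quantile normalization, a variance trend plus robust prior, a filter on the 25% of genes with the smallest SD, other ways to combine probe sets, and leaving out pools. The number of pools limits the precision.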

Additional observations from a re-analysis of the deposited data

How the results depend on the processing

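No member passed the adjusted threshold under any alternative run. Over all genes the count of 0 became 1 (Dyrk3, -1.50) with a trend and a robust prior. The count of members whose groups were apart was 5 and ran from 7 to 14 with 1 pool left out and was 13 without lean pool 3 and overfed pool 1, since fewer pools overlap less; it was 4 with array median centring, quantile normalization or 1 representative probe set. The Adam mean of -0.03 became 0.016 with 1 representative probe set per gene, and the Timp mean of -0.19 became -0.081 without lean pool 3 and overfed pool 1 (-0.24 to -0.13 with 1 pool left out). The cause was not tested.

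Signs turned in several genes. Mmp2 was at -0.076 with quantile normalization, -0.081 with array weights, -0.14 with 1 representative probe set and -0.13 without lean pool 3 and overfed pool 1. Adam10 was at -0.0017 with quantile normalization, -0.024 with array weights and -0.073 without those 2 pools. Without the same pools Timp2 was at 0.066, Mmp9 at -0.014 and Mmp3 at -0.0093. With 1 pool left out, Mmp2 ran from -0.23 to 0.29, Mmp3 from -0.023 to 0.31, Mmp7 from -1.06 to 0.16, Mmp11 from -0.025 to 0.39, Mmp14 from -0.098 to 0.25, Mmp19 from -0.35 to 0.044, Timp2 from -0.17 to 0.155 and Adam10 from -0.11 to 0.12. Adamts15 ran from -0.27 to 0.53 and Adamts7 from -0.034 to 0.34. Over all members, 25 of 51 kept their sign with each pool left out.

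The lean and overfed pools share numbers. Deviations of same-numbered pools correlated at 0.11, 0.15 and -0.375, and those of differently numbered pools between -0.449 and 0.485. The numbers were not taken as pairs, though deviations from a mean of 3 pools cannot show that the pools were unpaired. With the pool number as a replicate block 0 genes passed and 6 members, in place of 4, had an unadjusted p under 0.05 in limma. Signal over background is unknown, so a dim gene cannot be told from one that did not differ.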

Other observations

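Several genes had probe sets that went different ways, which the mean of a gene hides. Timp2 was at -0.25 in one probe set, with 1.01 in lean pool 3, and at +0.14 in the other. The membrane-type protease Mmp24 had +0.15, -0.13 and -0.24 in its 3 probe sets. Adam22, a receptor of the neuronal protein Lgi1, had -0.26, -0.07 and 0.01, and Adam23 had -0.04, 0.08 and -0.16. The 4 probe sets of the sheddase Adam19 ran from -0.10 to +0.33, with 1.01 in overfed pool 1 in one of them. By contrast the 2 probe sets of Mmp14 had +0.12 and +0.08, with overfed pool 1 highest in both (0.53 and 0.56).

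Markers of granulosa cells and of the corpus luteum had no difference past the adjusted threshold, which no named gene passed. Of 9 granulosa and follicle genes 7 had differences above 0 (median +0.18). Of these, 1 had an unadjusted p under 0.05 in limma, against 2.76% of all genes with higher values. This was Inhba (+0.60, SE 0.20), whose groups did not overlap. Of 7 corpus luteum genes 6 had differences below 0 (median -0.06), with 0 at an unadjusted p under 0.05 in limma. The mean of 9 granulosa and follicle genes was -0.25, -0.03 and -0.135 in the lean and -0.15, 0.06 and 0.25 in the overfed pools. That of 7 corpus luteum genes was 0.0060, 0.16 and -0.35 against -0.47, 0.07 and 0.02, lowest in overfed pool 1.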
